A study of Mus musculus with 20 samples.

Results

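Among 10 libraries of cultured mouse cancer-associated fibroblasts kept in 4 mM glutamine, 3 held under 300 TPM of Ccn1 mRNA: replicates 1 and 5 of the IL-1a group and replicate 5 of the vehicle group. They were set against the other 7 libraries of the same glutamine level, out of 20 libraries in the whole series. TPM is an abundance corrected for transcript length and scaled to a fixed total per library. The 3 libraries were picked by a measured level, Ccn1, so every difference between them and the other 7 is a description of these libraries without a test.

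All cells were immortalized primary murine CAFs, the fibroblasts of a pancreatic tumour's stroma, and per the treatment protocol DMSO was in every condition over 32 h. The 4 groups of 5 libraries were 4 mM glutamine with DMSO alone (vehicle), 4 mM glutamine with DMSO and 25 pg/mL IL1a (written IL-1a here), 0.2 mM glutamine with DMSO alone, and 0.2 mM glutamine with 25 uM EIPA, an amiloride analogue used to block macropinocytosis. The treatment protocol gives 25 mM for EIPA where the sample titles give 25 uM. Whether replicates came from separate cultures, and whether the cells are a single clone, is not in the labels, so the spread behind each p-value is that between these libraries and may be technical.

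Ccn1 encodes a secreted matrix-associated protein and is a target of YAP and TAZ, coactivators that act through TEAD factors on DNA and are held in the cytoplasm by the Hippo kinases when cells are crowded, rounded or on soft matrix. The genes of the actin cytoskeleton and of contraction are driven largely by SRF with its actin-sensing coactivators, and many of them overlap with YAP targets. Fibroblasts at rest are known for lower levels of such genes and for more decorin (Dcn), a small leucine-rich proteoglycan that binds collagen fibrils.

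Depth is unknown, since TPM are scaled to the same total in every library. Among fibroblast genes, Col1a1 stood at 2464 TPM or more in all 10 libraries. Of 12 listed fibroblast markers, Fap and Lum did not reach 1 TPM in 5 of the 20 libraries and were not tested. Genes at 1 TPM or more numbered 11989 to 12045 in the 3 low-Ccn1 libraries and 11818 to 11876 in the other 7, without overlap. Mitochondrially encoded mRNAs took 9.93% to 10.3% of TPM against 9.14% to 12.3%, and ribosomal protein mRNAs 13.1% to 13.3% against 12.2% to 13.9%, with overlap in both. In bulk RNA, fewer cells of a kind and less RNA per cell cannot be told apart. The first principal component of the 10 libraries after the IL-1a difference was taken out held 43.1% of the variance, with scores of 0.445, 0.387 and 0.507 in the 3 libraries and of -0.376 to 0.033 in the other 7. The second, with 17.18%, placed IL-1a replicate 1 at 0.704, away from the other 2 low-Ccn1 libraries at -0.396 and -0.144.

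Ccn1 stood at 201 TPM in IL-1a replicate 1, 235 TPM in IL-1a replicate 5 and 231 TPM in vehicle replicate 5. The other IL-1a libraries held 541, 475 and 381 TPM, and the other vehicle libraries 500.4, 599, 419 and 379 TPM. From replicate 2 to replicate 5 Ccn1 fell stepwise in both groups, so the split partly follows the replicate number. Between the members just inside and just outside the threshold, 235 and 379 TPM, no library fell. Dcn ran the other way, at 379.9, 371 and 398 TPM in the same 3 libraries against 119.7 to 263 TPM in the rest. IL-1a replicate 4 and vehicle replicate 4, with the lowest Ccn1 of the 7, held the most Dcn among them, 256 and 263 TPM. In mm10, Ccn1 (ENSMUSG00000028195) spans bases 145646976 to 145649981 of chromosome 3 (minus strand) and Dcn (ENSMUSG00000019929) bases 97479609 to 97518143 of chromosome 10 (plus strand).

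**Figure D1:**
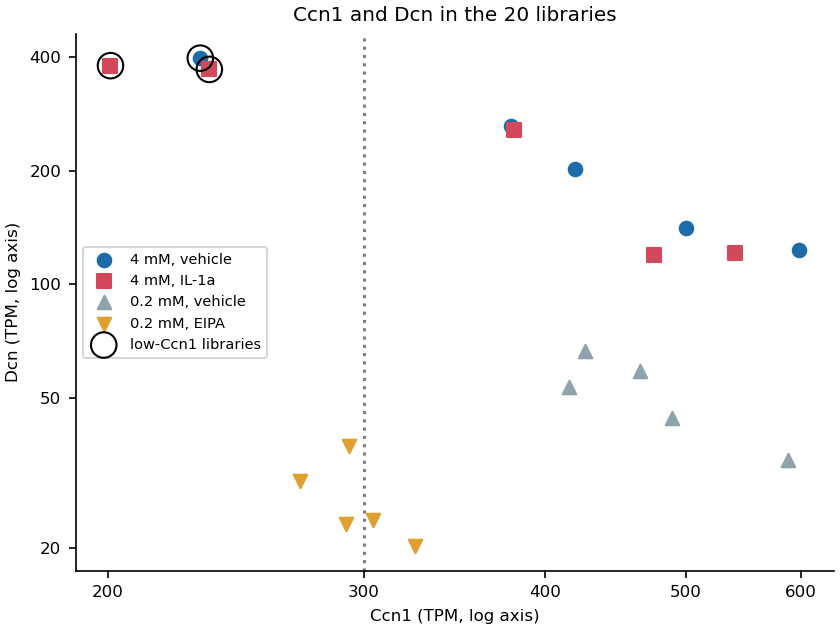
Ccn1 against Dcn (TPM, both axes log) in the 20 libraries, coloured by group, with the 3 low-Ccn1 libraries ringed and a dotted line at 300 TPM of Ccn1. The ringed libraries hold 371 to 398 TPM of Dcn, while the EIPA libraries, 3 of which are also under 300 TPM of Ccn1, hold 20.2 to 37.3 TPM.

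The low-Ccn1 libraries came from both treatments: 2 of 5 IL-1a libraries and 1 of 5 vehicle libraries were low in Ccn1. Differences are given as low-Ccn1 minus other libraries, on the log2(TPM + 1) scale, with the IL-1a group as a term. A gene is called set apart when all 3 values lay above or below all 7 others and the difference was at least 0.5. Of 12350 genes, 438 were set apart (3.55%), 338 higher (2.74%) and 100 lower (0.81%) in the 3 libraries. Higher genes made up 77.2% of them, and 63.2% (244 higher, 142 lower) after median-of-ratios scaling between libraries, which took the median gene from 0.05 to 0. Without IL-1a replicate 1, 158 genes were set apart lower and 392 higher. The counts also rose without IL-1a replicate 5 (127 lower, 411 higher) and without vehicle replicate 5 (128 lower, 462 higher). Fewer libraries then have to lie apart from the 7, which makes the call easier. Set-apart counts within each gene list are to be read against the 2.74% higher and 0.81% lower of all genes.

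Among set-apart genes averaging at least 10 TPM in the set where they were higher, the 12 largest differences downward included U90926 (-1.42), Ccn2 (-1.27), Fosl1 (-1.18), Fxyd5 (-1.11), Ankrd1 (-1.11), Ccn1 (-1.05), Inhba (-0.996), Hmga2 (-0.94), Has2 (-0.93), Pcolce2 (-0.90) and Galnt18 (-0.88). They code for secreted or matrix-related proteins (Ccn2, Ccn1, Pcolce2, activin A from Inhba), the hyaluronan synthase Has2, chromatin and transcription factors (Fosl1, Hmga2, Ankrd1), and a glycosyltransferase (Galnt18), while U90926 is listed as a long noncoding RNA. The 12 largest upward included Cxcl15 (1.70), Dhrs3 (1.495), Il1rn (1.28), Clu (1.25), Dcn (1.24), C430049B03Rik (1.23), Igfbp3 (1.21), Rassf2 (1.18), Ppp2r2b (1.17), Ptn (1.17) and Wnt4 (1.15). Among these, Cxcl15 is a CXC chemokine, Dhrs3 reduces retinal to retinol, Il1rn encodes the antagonist of the IL-1 receptor, Clu restrains complement, and Igfbp3 binds insulin-like growth factors.

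Of 21 tested YAP targets, 4 were set apart lower and 1 higher. One of the 4 is Ccn1, whose place the choice of libraries fixed. Without it 3 of 20 were lower and 1 was higher, with a median difference of -0.315 against 0.05 over all genes. Ccn2, the connective tissue growth factor, stood at 57.5, 97.8 and 101 TPM in IL-1a replicates 1 and 5 and vehicle replicate 5, and at 151 to 252 TPM in the other 7 (median 217). Ankrd1, a nuclear ankyrin-repeat protein of stretched muscle, stood at 17.6, 29.6 and 27.2 TPM against 45.0 to 62.2 TPM (median 54.8). In both genes IL-1a replicate 1 was lowest and the groups did not overlap. F3, tissue factor, held 45.1 to 51.7 TPM in the 3 and 67.6 to 92.8 TPM in the 7. Another 9 targets, Amotl2, Ajuba, Lats2, Axl, Crim1, Nuak2, Fjx1, Asap1 and Gadd45b, were lower without overlap by less than 0.5, so that, Ccn1 left out, 12 of 20 lay below all other libraries (background 6.74% of genes). Igfbp3, also listed as a YAP target, went the opposite way, at 154, 128 and 126 TPM against 39.7 to 102 TPM. Of 20 members of the pathway itself none was set apart (1 was, lower, after median-of-ratios scaling). Yap1 held 99.9 to 107 TPM against 99.7 to 109 TPM, and Wwtr1, which encodes TAZ, 79.9 to 94.3 against 69.0 to 84.8 TPM.

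The bases before the start of 3 lower genes show the CATTCC letters that TEAD factors are known to recognise, and those of a 4th gene show the TGANTCA letters of AP-1, the dimer that Fosl1 joins. The sequences are RefSeq's for GRCm38.p6, 5′ to 3′ in the gene's direction, the 250 bases that end at the base before the start, with matches in capitals (CATTCC on either strand, so GGAATG on the reverse, and TGANTCA).
Ccn1: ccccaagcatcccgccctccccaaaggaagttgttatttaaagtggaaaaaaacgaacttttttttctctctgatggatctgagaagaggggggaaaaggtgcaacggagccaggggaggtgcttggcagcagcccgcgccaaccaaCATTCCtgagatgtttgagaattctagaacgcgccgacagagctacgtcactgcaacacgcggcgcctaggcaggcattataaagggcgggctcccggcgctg
Ankrd1: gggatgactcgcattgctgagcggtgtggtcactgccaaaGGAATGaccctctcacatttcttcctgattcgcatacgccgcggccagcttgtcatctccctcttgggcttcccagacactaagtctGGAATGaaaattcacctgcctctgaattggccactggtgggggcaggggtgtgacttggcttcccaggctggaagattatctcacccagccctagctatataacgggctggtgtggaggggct
Acta2: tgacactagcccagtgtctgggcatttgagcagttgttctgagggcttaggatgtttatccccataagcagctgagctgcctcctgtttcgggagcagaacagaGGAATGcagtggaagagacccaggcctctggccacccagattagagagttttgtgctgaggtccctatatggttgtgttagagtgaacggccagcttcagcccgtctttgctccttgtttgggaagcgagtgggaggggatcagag
F3: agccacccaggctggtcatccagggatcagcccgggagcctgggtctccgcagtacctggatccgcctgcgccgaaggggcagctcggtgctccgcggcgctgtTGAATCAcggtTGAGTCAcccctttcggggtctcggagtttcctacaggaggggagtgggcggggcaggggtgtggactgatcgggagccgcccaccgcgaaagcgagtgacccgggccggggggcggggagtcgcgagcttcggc
They lie on chromosome 3 from 145649986 to 145650235 (Ccn1, minus strand), chromosome 19 from 36119845 to 36120094 (Ankrd1, minus) and from 34255374 to 34255623 (Acta2, minus), and chromosome 3 from 121723287 to 121723536 (F3, plus). Counting back from the start, the first base of a match lay at -103 in Ccn1, -210 and -123 in Ankrd1, -146 in Acta2, and -146 and -135 in F3. CATTCC on either strand was in 12.6% of 32851 such windows in the table, in 14.9% of the 74 windows of 61 lower set-apart genes and in 13.7% of the 336 windows of 252 higher ones, so these shares lay close to each other. TGANTCA was in 6.75%, 6.76% and 3.57% of the same windows. A match describes letters and is not evidence of binding.

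Of 26 genes of SRF and the contractile apparatus, 6 were set apart lower (background 0.81% of genes) and none higher, with a median of -0.30. In 17 of the 26 the 3 libraries lay below all 7 others (background 6.74% of genes). Acta2, the smooth muscle actin that marks myofibroblasts, held 769.9 to 842 TPM in the 3 libraries and 1202 to 1525 TPM in the 7 (difference -0.66). Tagln, an actin-binding protein, held 356 to 447 against 532 to 777 TPM (-0.61), and Cnn1, calponin, 21.03 to 27.5 against 32.7 to 56.4 TPM (-0.88). Myl9, a regulatory light chain of myosin, held 63.4 to 70.2 TPM in the 3 and 76.4 to 118 TPM in the 7. Actg2 and Fhl2 were the other 2. Cytoplasmic actins Actb and Actg1, filamin Flna, alpha-actinin Actn1, 3 tropomyosins, Srf and Mrtfa were also among the 17. After median-of-ratios scaling 8 of the 26 were set apart lower.

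**Figure D2:**
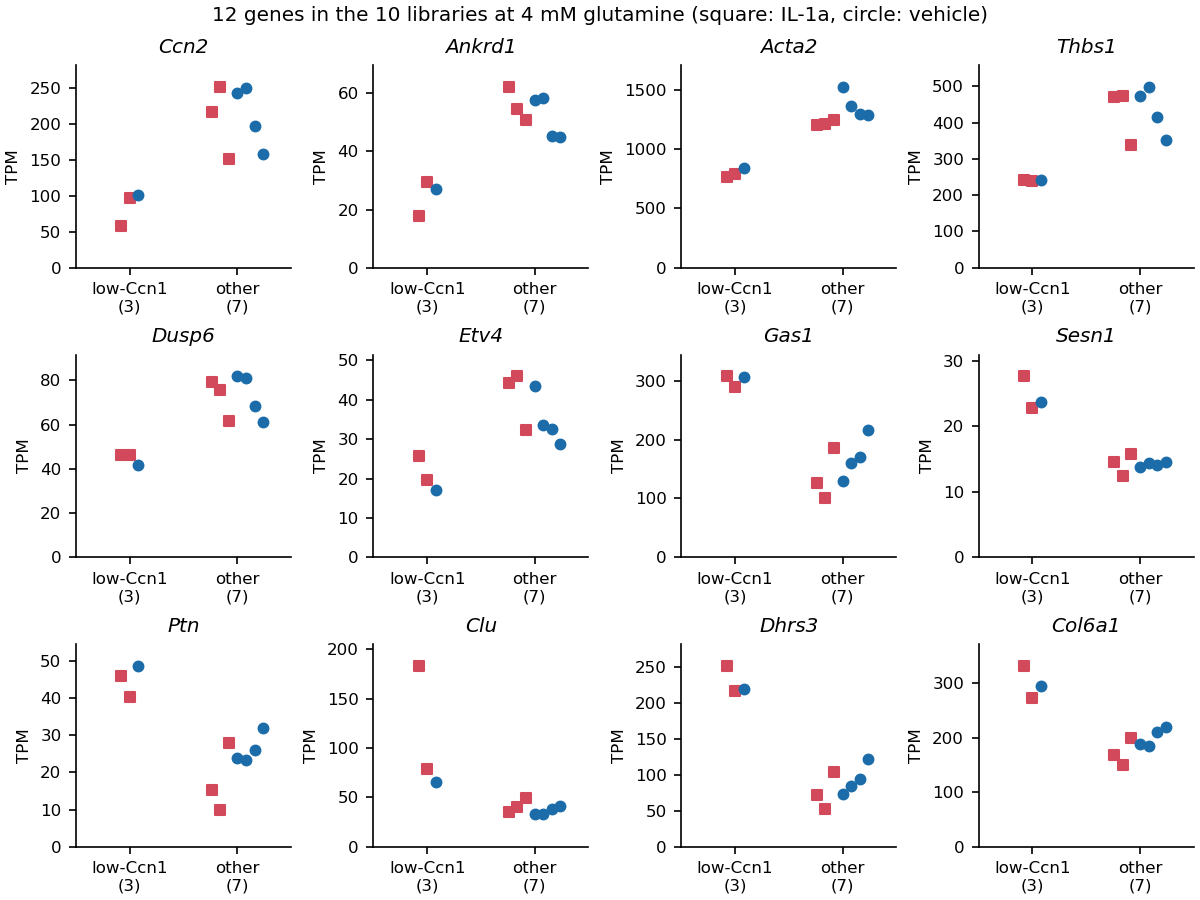
TPM of 12 genes in the 3 low-Ccn1 and the other 7 libraries at 4 mM glutamine, 1 point per library, with squares for IL-1a and circles for vehicle and each axis from 0. None of the 12 overlaps, and in Clu a single IL-1a library, replicate 1, stands above the other 2 low-Ccn1 libraries.

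Targets of ERK, the kinase at the end of the growth factor and Ras cascade, were lower too. Of 21, 8 were set apart lower (background 0.81% of genes) and none higher, with a median of -0.43. Fosl1, an AP-1 subunit, held 11.7, 8.45 and 7.78 TPM in IL-1a replicates 1 and 5 and vehicle replicate 5, against 14.1 to 28.4 TPM (median 21.8). Hmga2, an architectural chromatin protein, held 43.9, 40.5 and 36.2 TPM against 52.4 to 101 TPM (median 75.01). Dusp6 and Dusp4, phosphatases that ERK induces and that inactivate it, held 41.9 to 46.2 against 61.4 to 81.8 TPM and 26.5 to 33.5 against 40.5 to 63.0 TPM. The ETS factor Etv4 (-0.88), cyclin D1 (Ccnd1, -0.54) and the ephrin receptors Epha2 (-0.52) and Epha4 (-0.61) completed the 8. Among 22 immediate early genes 3 were lower, Fosl1, Maff (-0.62) and the phosphatase Dusp1 (-0.51).

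Of 27 growth factors and their antagonists 7 were set apart lower (background 0.81% of genes) and none higher, with a median of -0.20. The EGF receptor ligands Hbegf (6.63 to 7.63 against 10.2 to 16.8 TPM) and Ereg (2.17 to 2.88 against 3.50 to 7.96 TPM), the platelet-derived factor Pdgfb (-0.53) and Inhba (-0.996) were among them. The BMP antagonist Grem1 held 206, 159 and 160.3 TPM in IL-1a replicates 1 and 5 and vehicle replicate 5 and 212 to 429 TPM in the 7, where IL-1a replicate 4 and vehicle replicate 4 were lowest. Nog, another antagonist of BMP, held 0.17, 1.04 and 0.79 TPM against 1.28 to 2.24 TPM.

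TGF-beta targets held both directions: of 25, 5 were lower, 1 was higher, and the median was -0.01. The inhibitory Smad7 (-0.69), the latency protein Ltbp1 (-0.61), Pmepa1 (-0.60) and Id2 (-0.58) were among the lower ones, and Tgfbi (0.84), a matrix protein, was higher. Of 26 markers of myofibroblastic CAFs 7 were lower (Acta2, Tagln, Myl9, Cnn1, Thbs1, Ccn2 and Inhba) and 3 were higher (Hopx, Igfbp3 and the matrix protein Tnc). Of 22 markers of inflammatory CAFs, Dcn and Gpx3 were higher, Has2 was lower, and the median was 0.01.

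Of 22 collagen genes 3 were set apart higher (background 2.74% of genes) and none lower, with a median of 0.21. They were Col1a2 at 2428 to 2582 against 1441 to 2133 TPM, Col6a1 at 272 to 331 against 149 to 219 TPM, and Col6a2 at 145 to 194 against 76.7 to 119 TPM. Col1a1 was higher by 0.33 without overlap, 3545 to 3697 against 2464 to 3425 TPM. The basement membrane collagens Col4a1 (-0.46) and Col4a2 (-0.36) were not set apart. After median-of-ratios scaling 2 collagens were set apart higher and 1 lower. Tnc, tenascin C, held 81.9 to 85.9 against 38.3 to 58.6 TPM, and Thbs1, thrombospondin 1, a further YAP and TGF-beta responsive matrix protein, 239 to 242 against 338 to 498 TPM.

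Of 11 complement genes 4 were set apart higher (background 2.74% of genes) and none lower, with a median of 0.61. Clu held 183, 79.0 and 65.8 TPM in IL-1a replicates 1 and 5 and vehicle replicate 5 against 33.1 to 49.0 TPM. C1ra, a protease of the classical pathway, and Serping1, its inhibitor, were also among the 4. In Clu, C1ra and Serping1 IL-1a replicate 1 was highest. Without that library the difference of Clu was 0.88.

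**Figure D3:**
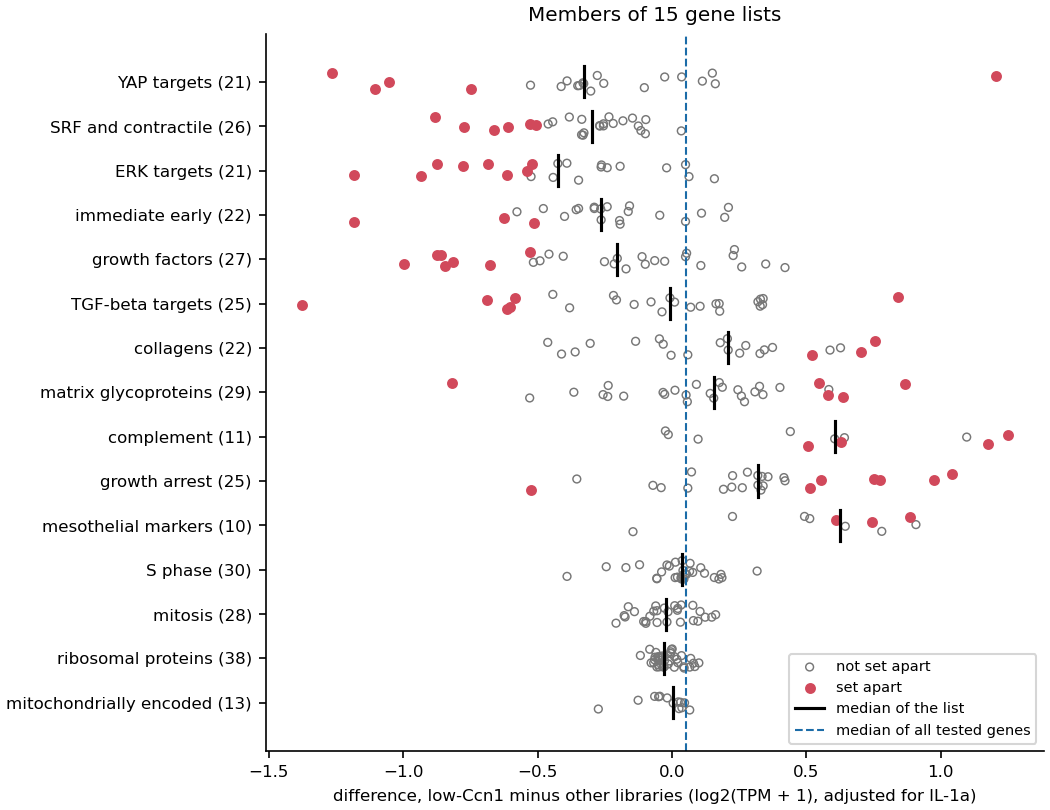
Difference of each tested member of 15 gene lists between low-Ccn1 and other libraries (log2(TPM + 1), adjusted for IL-1a), with set-apart genes filled, the list's median as a black bar and the median of all tested genes as a dashed line; the number tested is in brackets. Members of the ERK, contractile and YAP lists lie mostly to the left, those of the complement, mesothelial and growth arrest lists mostly to the right, and those of S phase, mitosis and the ribosome near 0.

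Of 25 genes of growth arrest and quiescence 6 were set apart higher and 1 lower, the median was 0.32, and 15 lay above all 7 others (background 15.7% of genes). Gas1, a membrane protein named for its rise in growth-arrested fibroblasts, held 307, 289 and 306 TPM in IL-1a replicates 1 and 5 and vehicle replicate 5 against 101 to 216 TPM. Pik3ip1, an inhibitor of PI3 kinase, held 10.9 to 17.5 against 5.25 to 9.01 TPM, and Sesn1, a sestrin that restrains mTORC1, 22.9 to 27.6 against 12.4 to 15.7 TPM. Ccng2 (0.77), Txnip (0.55) and Mxd4 (0.51) were the others, and the Notch target Hes1 was lower (-0.53). The FoxO factors Foxo1 and Foxo3, the cyclin-dependent kinase inhibitor Cdkn1b and the pocket proteins Rb1 and Rbl2 were among the 15. After median-of-ratios scaling 4 were set apart higher and 1 lower.

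None of 30 S phase genes and none of 28 mitotic genes was set apart, with medians of 0.04 and -0.02 (-0.02 and -0.08 after median-of-ratios scaling). Pcna, the replication clamp, held 384 to 412 against 369.6 to 396 TPM, and Top2a, the mitotic topoisomerase, 305 to 335 against 291 to 320.1 TPM. Cdk1, the mitotic kinase, held 491 to 517 against 551 to 574 TPM, a difference of -0.18 without overlap.

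Fatty acid synthesis had 3 of 17 genes set apart higher, the desaturases Scd1 (0.53), Fads1 (0.60) and Fads2 (0.68), and 1 after median-of-ratios scaling, while of 25 cholesterol genes 1 was higher, Tm7sf2. No gene was set apart among 20 of the unfolded protein response, 28 ATF4 targets, 24 NRF2 targets, 14 heat shock genes, 38 ribosomal protein genes, 13 mitochondrially encoded genes, 23 interferon genes and 13 listed chemokines. Cxcl15 is not in the chemokine list. ATF4 targets and interferon genes still leaned higher, with medians of 0.234 and 0.175 against 0.05 over all genes. Their differences were above 0 in 27 of 28 and 22 of 23 genes, against 7682 of all 12350. Only 2 of the 28 and 1 of the 23 lay above all 7 others (background 15.7% of genes). The 2 most abundant interferon genes were high in IL-1a replicate 1 alone of the 3. Ifi27 held 210 TPM there and 85.7 and 87.7 TPM in the other 2, against 85.9 to 129 TPM. Bst2 held 107 TPM there and 40.5 and 44.1 TPM, against 41.2 to 95.1 TPM. Chaperones of the endoplasmic reticulum and of the cytosol had medians of 0.18 and -0.18 over the 20 and the 14 genes. In the unfolded protein response list 9 of 20 lay above all 7 others (background 15.7% of genes), and of the 14 heat shock genes 6 lay below (background 6.74%). Hspa5 (BiP) held 981 to 1025 against 786 to 965 TPM, and Hsp90aa1 691 to 812 against 869.98 to 1070.3 TPM.

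Mesothelial markers were expressed in all 10 libraries and had a median difference of 0.63, with 3 of 10 set apart higher, Gpm6a (102 to 119.8 against 50.5 to 99.6 TPM), Cldn15 and Muc16. Their summed level was 1031 to 1387 TPM in the 3 and 728 to 1120.3 TPM in the 7. Msln overlapped, at 82.0 to 92.2 against 83.5 to 126 TPM, and Krt19, which is also an epithelial marker, held 193 to 379.7 against 153 to 254 TPM. The part of these markers in the other differences was not tested. Summed leukocyte markers stood at 14.9 to 30.6 against 15.2 to 22.6 TPM, with 4 of 10, Adgre1, Cd3e and Tyrobp among them, listed at 0 in all 10 libraries. Endothelial markers stood at 9.35 to 12.5 against 8.20 to 11.2 TPM with Cdh5 and Cldn5 at 0, and Schwann cell markers at 31.1 to 37.2 against 29.0 to 37.1 TPM with Sox10, S100b and Cdh19 at 0. Mural markers stood at 19.4 to 20.1 against 18.6 to 21.1 TPM and epithelial markers at 217 to 404 against 170.1 to 272 TPM, most of it Krt19. Adipocyte markers, at 23.04 to 31.6 against 16.6 to 23.4 TPM, had Plin1 and Cidec at 0.

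The 3 libraries were not equal among themselves. IL-1a replicate 1 was farthest from the other 7 in 182 of the 338 higher genes (53.8%) and in 48 of the 100 lower ones (48.0%). The median ratio of the highest to the lowest of the 3 was 1.22 for higher and 1.20 for lower genes. Among the other 7, vehicle replicate 4 and IL-1a replicate 4 came nearest to the 3 in 132 and 82 of the higher genes and in 32 and 39 of the lower ones. The mean of the higher genes minus that of the lower genes, on the log2 scale, is high in the 3 libraries by the choice of genes, and was 0.15 to 0.38 in the 3 libraries and -1.44 to -0.86 in the 7. It was -1.38 to -0.996 with EIPA and -1.54 to -1.32 with vehicle at 0.2 mM glutamine.

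Long noncoding RNAs made up 5.33% of the higher and 9.0% of the lower genes, against 5.21% of all tested genes. Median levels were 9.94 TPM for higher and 16.5 TPM for lower genes, against 22.8 TPM. Across 12340 genes with a transcript in the annotation, the difference had a Pearson r of 0.038 with log2 length and 0.015 with GC content, and across 12350 genes of -0.171 with the mean log2 level, as a description of genes that share the same libraries.

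IL-1a was compared with vehicle at 4 mM glutamine with and without the low-Ccn1 libraries, since 2 of the 5 IL-1a and 1 of the 5 vehicle libraries were among them. With all 10, limma called 35 of 12350 genes (0.283%), 32 higher (0.259%) and 3 lower (0.0243%) with IL-1a. Without the 3 it called 34 (0.275%), 31 higher and 3 lower, of which 30 were called both times, and with the split as a term in the model it called 44 (0.356%), including all 35. The count rests on the shared estimate of spread: with only the 2 groups compared in the fit, limma called 19, 18 higher and 1 lower. The chemokine Cxcl5 held 105, 59.6, 42.4, 36.8 and 29.9 TPM in IL-1a replicates 1 to 5 and 3.25 to 5.4 TPM in vehicle, so the groups did not overlap. Its log2 fold change was 3.31 ± 0.22 (SE; limma adjusted p = 9.4e-09) with all libraries and 3.28 ± 0.16 (limma adjusted p = 5.5e-10) without the 3.

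Saa3, an acute phase protein, held 60.9 TPM in IL-1a replicate 1 and 7.67 to 13.5 TPM in the other IL-1a libraries, IL-1a replicate 5 included at 8.86 TPM, and 0 to 2.17 TPM in vehicle. It rose by 3.34 ± 0.40 with all libraries (limma adjusted p = 0.0001) and by 3.14 ± 0.24 without the 3 (limma adjusted p = 5.9e-07). Steap4, a metalloreductase of inflamed tissue, rose by 1.81 ± 0.26 and by 1.42 ± 0.12. Ccl20, a chemokine, was called without the 3 (1.30 ± 0.19, limma adjusted p = 0.0017) and not with them (0.96 ± 0.21, limma adjusted p = 0.059), its low-Ccn1 IL-1a libraries holding 0.84 and 1.37 TPM against 2.79 to 3.24 TPM in the other IL-1a libraries. The growth factor Fgf7 went the other way, at 0.77 both times but with limma adjusted p = 0.045 and 0.2.

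None of the 438 set-apart genes was called by limma for IL-1a with all 10 libraries, where 0.283% of all genes were called. These genes were chosen for a gap that runs inside both groups. That choice widens their spread within groups, so the lack of calls says little about them. Without the 3, 1 was called, Gdpd2, which held 15.7 and 7.66 TPM in the low-Ccn1 IL-1a libraries, 2.43 to 3.16 TPM in the other IL-1a libraries, 4.72 TPM in the low-Ccn1 vehicle library and 0.94 to 1.67 TPM in the other vehicle libraries. Its log2 fold change was 0.81 ± 0.13 without the 3 (limma adjusted p = 0.0035) and 1.19 ± 0.33 with them (limma adjusted p = 0.27). Dcn differed by 0.10 ± 0.33 between IL-1a and vehicle with all libraries and by -0.17 without the 3, neither of them called.

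**Figure D4:**
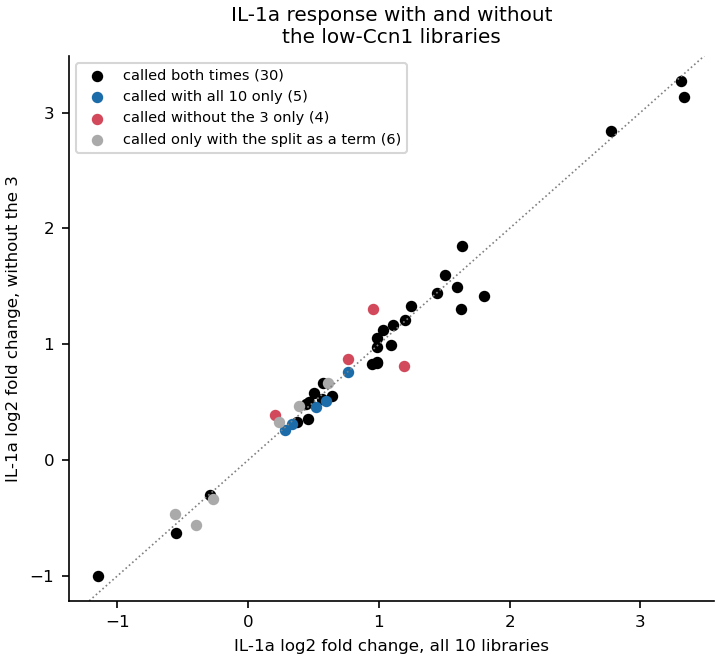
IL-1a log2 fold change with all 10 libraries at 4 mM glutamine (x axis) and without the 3 low-Ccn1 libraries (y axis) for the 45 genes called in at least 1 of the 3 fits, with a dotted line of equality. The 30 genes called both times lie near the line, Steap4 among them and below it. Gdpd2, called without the 3 and not with all 10, also lies below the line.

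The libraries at 0.2 mM glutamine had no part in the split, so set-apart genes that were expressed there could be tested for EIPA. Some were near 0 at 0.2 mM, such as Cxcl15 (0 to 0.24 TPM), and could hardly be called for EIPA. In the glutamine comparison Cxcl15 was called lower at 0.2 mM (-2.69 ± 0.37, limma adjusted p = 1.5e-06). Of the 338 higher genes, 195 were called lower at 0.2 than at 4 mM in vehicle, against 27.9% of all genes. These genes were chosen for high values at 4 mM, and some, like Cxcl15, passed the filter through those libraries only. That choice favours such calls, so the count is a description and not a test. That glutamine comparison includes 1 low-Ccn1 library. EIPA against vehicle changed 48.5% of all genes by limma, 27.4% higher and 21.1% lower. Of the 338 genes higher in the low-Ccn1 libraries, 68 rose with EIPA (20.1%) and 47 fell (13.9%), and of the 100 lower genes 24 rose (24.0%) and 40 fell (40.0%). The spread in this model is shared by all 4 groups, the split one included. When only the groups compared were fitted, 102 and 72 of the higher genes rose and fell (30.2% and 21.3%, against 27.3% and 20.8% of all genes), and 28 and 45 of the lower genes. Across all 12350 genes the split difference and the EIPA fold change, which share no library, had a Pearson r of -0.007, and across the 438 set-apart genes of 0.067.

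Ccn1 held 271, 325, 305, 293 and 292 TPM with EIPA and 416, 588, 489, 426 and 465 TPM with vehicle, without overlap. It fell by 0.67 on the log2 scale (-0.67 ± 0.23, limma adjusted p = 0.023), a call lost without vehicle replicate 2 (-0.59) or without the filter on low values. Dcn, high in the low-Ccn1 libraries at 4 mM, was lower with EIPA: 30.1, 20.2, 23.8, 37.3 and 23.2 TPM against 53.3, 34.3, 44.3, 66.5 and 58.9 TPM, where the groups overlapped in 1 library each (-0.91 ± 0.33, limma adjusted p = 0.028). That call was lost without the filter and without any one of EIPA replicates 2, 3 and 5 and vehicle replicates 4 and 5, with differences of -0.87 to -0.81, and adjusted p was 0.0013 by limma when only the groups compared were fitted.

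Of the 4 lower YAP targets, Ccn1, Ccn2 (139 ± 27.5 against 375 ± 96.2 TPM, SD, n = 5; -1.42 ± 0.31, limma adjusted p = 0.00075) and F3 fell, and Ankrd1 was not called (-0.17 ± 0.26, limma adjusted p = 0.63). Over the whole list of 21 YAP targets 6 rose and 8 fell, against 27.4% and 21.1% of all genes. Of the 6 lower contractile genes 5 fell, Acta2 by -2.31 ± 0.21 (limma adjusted p = 1.5e-08), Tagln, Cnn1, Myl9 and Actg2, and Fhl2 was not called. Over the whole list of 26 contractile genes 2 rose and 20 fell, against 27.4% and 21.1% of all genes.

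Of the 8 lower ERK targets 6 rose with EIPA and 1 fell, Epha4. Fosl1 held 71.4 ± 11.6 TPM with EIPA and 31.1 ± 6.42 TPM with vehicle (SD, n = 5; 1.19 ± 0.29, limma adjusted p = 0.002), and Hmga2 193 ± 21.3 and 48.3 ± 5.78 TPM (1.98 ± 0.23, limma adjusted p = 4.9e-07), in both without overlap. Etv4 (1.80 ± 0.21), Ccnd1 (1.29 ± 0.19), Dusp4 (1.27 ± 0.19) and Dusp6 (0.64 ± 0.17) rose too. Over the whole list of 21 ERK targets 14 rose and 3 fell, against 27.4% and 21.1% of all genes.

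Of the genes higher in the low-Ccn1 libraries, the 3 collagens Col1a2 (-1.45 ± 0.16), Col6a1 (-0.57 ± 0.17) and Col6a2 (-0.60 ± 0.18) fell with EIPA, as did Gas1 (9.92 ± 3.50 against 35.1 ± 12.8 TPM, SD, n = 5; -1.71 ± 0.30, limma adjusted p = 0.0001), Ptn, a heparin-binding growth factor (-1.43 ± 0.32), and Txnip. The desaturases Scd1 (1.68 ± 0.16), Fads1 (1.26 ± 0.16) and Fads2 (1.61 ± 0.20), and Sesn1 (0.47 ± 0.17) and Ccng2 (0.88 ± 0.17), rose. None of the 4 higher complement genes was called in the shared model, and Clu rose when only the groups compared were fitted (limma adjusted p = 0.0083).

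**Figure D5:**
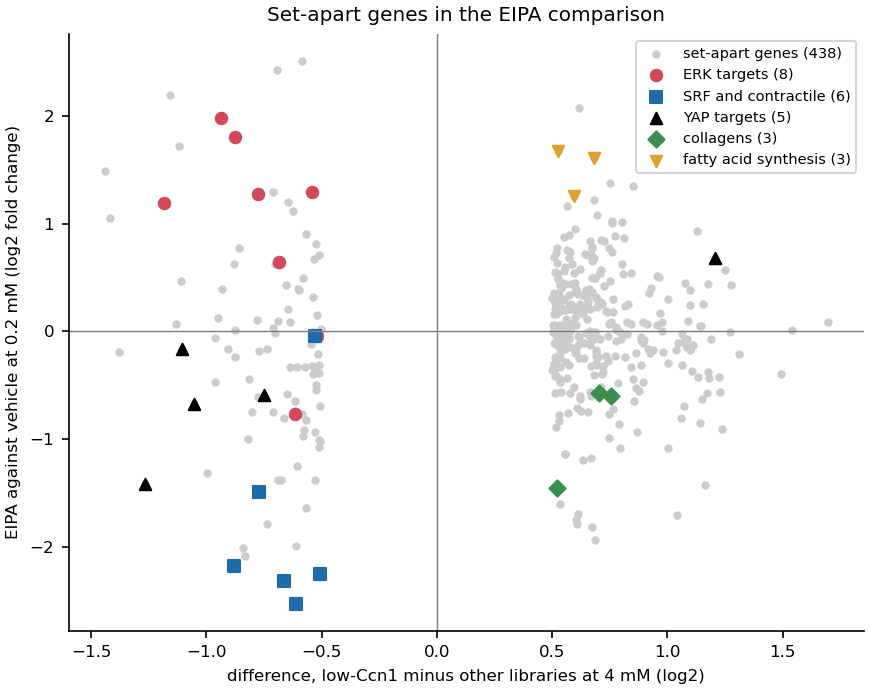
Difference between low-Ccn1 and other libraries at 4 mM glutamine (x axis, log2) against the EIPA log2 fold change at 0.2 mM (y axis) for the 438 set-apart genes, with members of 5 lists marked. Contractile genes lie on the left and mostly below 0 on the EIPA axis and ERK targets on the left and mostly above it, while the collagens and desaturases lie on the right, below and above 0.

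Vehicle replicate 5 is also 1 of the 5 libraries against which 0.2 mM glutamine was compared. Limma called 9055 genes in that comparison (73.3%), 5606 higher and 3449 lower at 0.2 mM, or 4432 and 4391 after median-of-ratios scaling, and without vehicle replicate 5 it called 8942. Dcn was lower at 0.2 mM by -2.01 ± 0.33 (51.5 ± 12.5 against 225 ± 111 TPM, SD, n = 5; limma adjusted p = 1.3e-05) and by -1.78 without that library. Ccn1 was at 477 ± 68.7 and 426 ± 137 TPM, a difference of 0.22 ± 0.23 (limma adjusted p = 0.41) that became 0.02 without it.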

How the data were processed

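The deposited table from the authors gives TPM for 32285 genes in 20 libraries of polyadenylated RNA, sequenced as paired reads of 75 bases per the labels' protocols. RSEM and mm10 are named, without versions, per the submitters' processing notes, and the sources used here do not name the aligner or annotation. TPM keep no depth, so counting intervals could not be given.

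The 12350 genes that reached 1 TPM in 5 or more libraries were analysed as log2(TPM + 1), which understates the change of low genes. The split was described by least squares with IL-1a as a term. IL-1a, EIPA and glutamine comparisons were fitted with limma 3.58.1 (R 4.3.3), trended variance and 1 model of the 4 groups, Benjamini-Hochberg adjusted, called under 0.05, and tested on simulated data. Standard errors follow ±, unless SD is stated.

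The members and the 46 gene lists (1000 of 1003 entries in the table, partly overlapping) were chosen with earlier results of these data known. Genes named by rule were Ccn1 and Dcn, the 12 set-apart genes with the largest difference in each direction that averaged 10 TPM or more where higher, 2 set-apart members per list and direction (or, with none, the 2 most abundant) and up to 8 IL-1a genes per direction; other names are examples chosen after their values were seen, and some genes are not reported here. Where a symbol has several IDs, the most abundant was used in lists. Gene positions are GENCODE M21 (mm10), holding 32158 of the IDs. Promoter sequences are RefSeq's (GRCm38.p6). Reads of near-identical genes (actins, tropomyosins, H2 genes) can be shared, so their levels are uncertain. The lists also covered proteoglycans, matrix glycoproteins and remodelling, NF-kB, p53 and hypoxia targets, glycolysis, clock, lysosome, nuclear-encoded respiratory, nuclear noncoding RNA, integrin, IGF axis and universal fibroblast genes, whose set-apart counts are in the other observations. A planned Fisher exact test of the split over treatments is not used, since 3 of 10 libraries cannot give a two-sided p below 0.167. Alternatives were another pseudocount, filters, scalings, the model and the libraries used.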

Additional observations from a re-analysis of the deposited data

Results flagged for a closer look

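Of 56 sets of 5 libraries checked by Dixon's criterion for a single library far from its group, 4 passed, where chance gives about 1 in 20. That rate does not apply to Clu and Rassf2, which were checked because their values set the low-Ccn1 libraries apart. Vehicle replicate 5, the low-Ccn1 library of its group, held 65.8 TPM of Clu against 33.1 to 41.7 TPM in the other 4 vehicle libraries. It also held 22.4 TPM of Rassf2, a Ras association domain protein, against 5.49 to 9.79 TPM. The other 2 fell on libraries outside the low-Ccn1 set. Long noncoding RNAs took 2.20% of TPM in IL-1a replicate 2, against 1.21% in the next highest IL-1a library, and Gm42418, a gene that overlaps ribosomal RNA sequence, held 13662 TPM there against 2507 to 5459 TPM in the other libraries at 4 mM glutamine. Ribosomal protein mRNAs took 12.2% of TPM in vehicle replicate 3, against 13.1% in the next lowest vehicle library.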

How the results depend on the processing

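Gene counts of the split depended on its thresholds: 291 genes were set apart (211 higher) with a mean of at least 5 TPM, 57 (46 higher, 11 lower) with a difference of at least 1, and 2774 (1942 higher, 832 lower) with no minimum difference. Leaving out 1 library gave 422 to 590 set-apart genes, 319 to 462 higher and 92 to 158 lower. The count of IL-1a genes went from 35 to 18 with the replicate number as a block (17 higher, 1 lower) and to 19 with only the 2 groups compared (18 higher, 1 lower), and from 27 to 47 when 1 library was left out (25 to 43 higher, 1 to 6 lower). Genes lower with IL-1a numbered 7 without a filter, 5 after median-of-ratios scaling, 5 without mitochondrially encoded genes and 6 with the split as a term. Of the higher set-apart genes 105 rose and 78 fell with EIPA under the replicate block, and 72 fell with only the 2 groups compared. With 1 library left out, 59 to 70 rose and 39 to 51 fell. Dcn, called in none of the IL-1a fits, changed sign there: -0.092 without IL-1a replicate 1, -0.084 without IL-1a replicate 5, -0.033 and -0.081 without vehicle replicates 1 and 2, -0.169 without the 3 low-Ccn1 libraries and -0.145 with the split as a term, but it was 0.34 without vehicle replicate 5. Pcolce2, not called for EIPA, was at 0.054 without EIPA replicate 5. The causes were not tested. Of 1142 values recomputed under an alternative, 1077 kept their direction and side of the threshold or their size. Replicate numbers were not taken to pair the libraries, since the labels name nothing shared. Same-numbered libraries correlated from -0.281 to 0.601 (IL-1a against vehicle), 0.062 to 0.322 (EIPA) and 0.049 to 0.167 (glutamine). Still, 2 of 5, 4 of 5 and 4 of 5 libraries correlated best with their own number, a hint from the data and not from the design. The split itself partly follows the number. At 4 mM, Ccn1 fell from replicate 2 to 5 with IL-1a (541 to 235 TPM) and with vehicle (599 to 231 TPM). The 2 replicates 5, both low in Ccn1, gave the 0.601. The replicates 1, with 201 TPM (IL-1a) and 500.4 TPM (vehicle), gave the -0.281. Whether same-numbered libraries share a source was not tested. Depth is unknown, so genes of a few TPM may rest on few reads.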

Other observations

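Other gene groups differed between the low-Ccn1 libraries and the other 7. Their panels were chosen after the values were seen, so their counts describe these libraries only. Of 10 tested genes of retinoid metabolism and response 4 were set apart higher, among them Dhrs3 at 250.8, 217 and 219 TPM in IL-1a replicates 1 and 5 and vehicle replicate 5 against 52.0 to 122 TPM, the transglutaminase Tgm2 (111 to 172 against 44.2 to 90.5 TPM) and the retinoic acid receptor Rarb (10.1 to 14.8 against 3.90 to 9.04 TPM). Of 12 genes of iron handling 4 were set apart higher and 1 lower, with a median of 0.09 against 0.05 over all genes: the carrier Trf (105 to 185 against 53.3 to 74.0 TPM), the exporter Slc40a1 (6.21 to 7.28 against 1.91 to 4.28 TPM), the ferritin receptor Ncoa4 (185 to 234 against 106 to 134 TPM) and Hfe were higher, and the transferrin receptor Tfrc was lower (55.8 to 109 against 117 to 132 TPM). Of 9 Wnt genes 4 were higher, Wnt4, Rspo1, Fzd1 and the feedback target Axin2 (2.65 to 3.73 against 0.89 to 2.15 TPM).

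Of 12 BMP antagonists and targets 6 were lower and none higher, among them the antagonists Grem1 and Nog and the targets Id2, Smad7 and Atoh8. Of 10 class I antigen presentation genes 3 were higher, H2-K1 at 65.8 to 73.3 against 36.6 to 49.0 TPM, H2-Q4 and H2-T23. A panel of 20 genes held ribosome biogenesis genes and, beside them, Odc1. In 14 of the 20 the 3 libraries lay below the other 7 without overlap (background 6.74% of genes). Set apart lower were 3, Odc1 (192 to 196 against 266 to 336 TPM) and the ribosome biogenesis genes Lyar and Rrp12. The 38 ribosomal protein genes held none. Odc1 makes polyamines and is a classical target of Myc.

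In the remaining lists, higher and lower set-apart counts, to be read against 2.74% and 0.81% of all genes, were 1 and 0 of 5 small leucine-rich proteoglycans, 4 and 1 of 29 matrix glycoproteins, 1 and 3 of 33 matrix remodelling genes, 0 and 1 of 31 NF-kB targets, 2 and 1 of 21 p53 targets and 0 and 1 of 22 hypoxia genes. The lower hypoxia gene was Ankrd1, already counted among the YAP targets. Counts were 2 and 0 of 21 glycolysis genes, 1 and 0 of 16 clock genes and 1 and 0 of 33 lysosomal genes. They were 0 and 0 of 39 nuclear-encoded respiratory genes, and 0 and 0 of 9 nuclear noncoding RNAs. They were 1 and 1 of 22 integrins and adhesion genes, 2 and 1 of 12 IGF axis genes, 3 and 0 of 13 universal fibroblast genes and 2 and 0 of 10 fibroblast markers. After median-of-ratios scaling some of these counts changed. Matrix glycoproteins then had 2 and 1, matrix remodelling genes 0 and 4, and NF-kB targets 0 and 2. Glycolysis and lysosomal genes had 0 and 0, and fibroblast markers 1 and 0.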
